A study of Mus musculus with 8 samples.

Results

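Small non-coding RNA genes were followed through an mRNA sequencing experiment on mouse bone marrow-derived macrophages. The members are the rows of the deposited gene table whose symbol begins with Snord, Snora, Scarna or Rn7s, is a microRNA gene symbol, or is Rpph1, Rmrp or Rn45s. The pattern took 49 of the 11541 rows: 1 ribosomal RNA precursor (Rn45s), 1 RNase P RNA (Rpph1), 11 box C/D small nucleolar RNAs (snoRNAs), 13 box H/ACA snoRNAs and 20 microRNA genes. It also took 3 long RNAs that carry microRNAs (Mir22hg, Mir17hg and Mir99ahg), which are not small. Leaving them out gives 46 rows. No row analysed here matched Scarna, Rmrp or Rn7s.

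Macrophages were expanded from non-adherent bone marrow cells for 4 days with macrophage colony-stimulating factor (M-CSF) at 25 ng/mL, and there were 8 libraries. The genotype label was OGFRL1_KO for 4 libraries and OGFRL1_WT for the other 4, and both groups had the same culture and the same M-CSF. The series describes the marrow donors as Ogfrl1-deficient and wild-type control mice. All 8 titles begin with OGdelta, in both groups, and hold a number that differs between libraries. The labels give no allele, strain or age of the mice, and replicates 1 to 4 of each group are numbered in accession order, so a number names a library and pairs nothing. They do not say either that each library came from a separate animal, so the p-values below measure the spread between these libraries, which may be technical. Libraries were made from total RNA with an mRNA kit, which selects RNA by its poly(A) tail.

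Small nucleolar RNAs guide chemical changes of ribosomal RNA in the nucleolus: box C/D snoRNAs direct ribose methylation and box H/ACA snoRNAs direct the conversion of uridine to pseudouridine. In mammals most of them lie in introns of other genes and are released when the host transcript is spliced. MicroRNAs are cut from hairpins in longer transcripts and then pair with target mRNAs through a short seed. RNase P RNA is the catalytic RNA that trims the 5′ end of transfer RNAs, and the 45S precursor is cut into the large ribosomal RNAs. The finished forms of these RNAs carry no poly(A) tail, and reads in such a row can come from the finished RNA, its precursor or an unspliced host. These sources were not told apart here.

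The box C/D snoRNAs with the smallest p in each direction (Snord52 and Snord2) and the most abundant one (Snord96a) are shown first, to make visible how short the counted units are. Sequences are those of the GENCODE M21 transcripts (GRCm38), 5′ to 3′. Capitals mark the first TGATGA, an exact form of the C box, and the last CTGA, the D box, read on the strand of the RNA only.
Snord52: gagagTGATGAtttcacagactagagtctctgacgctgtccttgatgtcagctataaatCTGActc
Snord2: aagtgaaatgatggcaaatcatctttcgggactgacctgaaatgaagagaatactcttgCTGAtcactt
Snord96a: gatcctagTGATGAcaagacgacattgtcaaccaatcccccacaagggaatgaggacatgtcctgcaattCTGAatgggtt
Snord52 lies on the minus strand at chr17:34950952-34951017, Snord2 on the plus strand at chr16:23108953-23109021 and Snord96a on the plus strand at chr11:48802032-48802112. CTGA was present in all 11 box C/D members and in all 98 GENCODE transcripts with a Snord name. TGATGA was present in 6 of the 11 and in 75.5% of the 98, and Snord2 does not hold it in this exact form.

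The box H/ACA snoRNAs Snora41, whose groups did not overlap, and Snora75, with the smallest p of its class, are shown with the last ACA of the sequence in capitals.
Snora41: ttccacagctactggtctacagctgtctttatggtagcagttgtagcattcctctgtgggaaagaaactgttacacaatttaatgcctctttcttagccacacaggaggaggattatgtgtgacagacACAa
Snora75: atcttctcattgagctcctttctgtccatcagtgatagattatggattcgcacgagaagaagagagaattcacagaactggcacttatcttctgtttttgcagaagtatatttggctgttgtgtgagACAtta
Snora41 spans chr1:63179004-63179135 on the plus strand and Snora75 spans chr1:86351169-86351301 on the minus strand. In these transcripts 1 base follows the last ACA of Snora41 and 3 bases follow that of Snora75. An ACA occurred in all 13 box H/ACA members and in all 42 GENCODE transcripts with a Snora name. A motif of 3 bases is likely to occur somewhere in a sequence this long, so its presence alone does not mark the box. In Snora81 the last ACA is followed by 93 bases.

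For microRNAs, the mature RNAs of the genes named in the results are given from RefSeq (GRCm38.p6), with the seed (bases 2 to 8) in capitals. They show what the gene makes, and the counts do not measure it: each row counts reads over the gene in an mRNA library.
mmu-miR-6236: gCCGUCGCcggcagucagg
mmu-miR-3064-5p: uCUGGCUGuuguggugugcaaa
mmu-miR-3064-3p: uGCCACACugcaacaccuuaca
mmu-miR-682: cUGCAGUCacagugaagucug
mmu-miR-703: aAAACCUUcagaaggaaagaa
mmu-miR-24-3p: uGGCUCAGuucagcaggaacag
mmu-miR-3971: cUCCCCACcccuguaccaguga
mmu-miR-142a-3p: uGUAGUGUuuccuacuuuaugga
mmu-miR-3113-3p: uCCUGGCCcugguccugguc
For 19 of the 20 microRNA genes RefSeq gave 28 mature sequences, and these had 28 different seeds, so no pair of members shared a seed. The remaining gene is Mir684-1.

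One hairpin was almost the same as a ribosomal protein mRNA. The RefSeq hairpin of Mir682, written as DNA, is shown beside a stretch of the GENCODE transcript of Rpl37a, which encodes a protein of the large ribosomal subunit, and the base that differs is in capitals.
Mir682 hairpin: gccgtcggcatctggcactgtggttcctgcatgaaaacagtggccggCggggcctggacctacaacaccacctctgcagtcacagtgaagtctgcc
Rpl37a coding stretch: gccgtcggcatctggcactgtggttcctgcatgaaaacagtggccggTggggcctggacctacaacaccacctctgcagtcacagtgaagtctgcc
The 96 bases differ at 1 position, C48T, counted from 1 at the 5′ end of the hairpin with the base of Mir682 first, which is 99.0% identity. The stretch is bases 182 to 277 of the Rpl37a transcript, whose coding sequence runs from base 32 to base 307. The Mir682 gene (chr13:75645046-75645141, plus strand) lies in the processed pseudogene Gm4149. A similarity search of 41 members against all GENCODE transcripts on the same strand, at 90% identity or more over 80% of the member or more, found a similar transcript elsewhere for 12 members and none for 29. Mir682 had 25 such genes. Some of these were a pseudogene and a microRNA gene with equal identity and coverage, such as Gm20302 and Gm22426 (95.5% over 92.7% of the hairpin). The 25 are therefore annotated genes and need not be as many separate places. Mir703 had 5, among them the mRNA of Eef1a1, a translation elongation factor, which it matched over 109 bases after the coding sequence with 1 substitution (A27G) and 1 gap base. The sources used here say neither how reads that match several places were counted nor which strand setting was used, so whether reads in these 12 rows came from elsewhere was not tested. Mir6236, Mir3113, Mir5098, Mir684-1, Rn45s and the long microRNA host RNAs were not among the 41 members searched.

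The 8 libraries held 39601341 to 61556269 counts over all rows. The authors' ribosomal RNA percentage of raw reads ranged from 1.79 to 9.10, and WT-labelled replicates 1 and 2 stood apart from the rest: they had the lowest values (1.79 and 1.83%) and the highest mitochondrial percentages (6.07 and 7.03%, against 1.49 to 3.17% in the other 6). The targeted gene did not separate the groups. Ogfrl1 had 158.9, 197.3, 149.5 and 145.7 CPM (counts scaled to library size with TMM factors) in KO-labelled replicates 1 to 4 and 267.3, 284.2, 165.8 and 134.9 CPM in WT-labelled replicates 1 to 4, so the lowest value was in a WT-labelled library and the groups are named by label throughout. All 10 macrophage markers were measured, at a summed 21018 to 22695 CPM in KO-labelled and 18784 to 21687 CPM in WT-labelled libraries. Their median log2 fold change was 0.11, with 7 of 10 positive. At an unadjusted edgeR p under 0.05, 1 of them was higher in KO-labelled libraries and none was lower. Of markers of other cells, 7 of 8 neutrophil genes summed to 167 to 196 and 188 to 234 CPM (3 lower in KO-labelled libraries at an unadjusted edgeR p under 0.05, none higher, median log2 fold change -0.15), 5 of 7 stromal genes to 22.1 to 92.6 and 12.2 to 126 CPM, and 3 of 5 megakaryocyte and platelet genes to 153 to 187 and 154 to 199 CPM. The median was -0.34 for the stromal genes, with 0 of 5 positive. It was 0.02 for the megakaryocyte and platelet genes, with 2 of 3 positive. No gene of either list was at that level of p. None of the B cell, T and NK cell or erythroid markers had a row among those analysed here. The part of these differences in the results below was not tested. In bulk RNA fewer cells of a type and less RNA per cell cannot be told apart.

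Comparing KO-labelled with WT-labelled libraries asks what Ogfrl1 deficiency does to these macrophages. No member passed the threshold of an adjusted p under 0.05. The edgeR quasi-likelihood test called 0 of the 49 members and 0 of all 11541 rows (0%), with a lowest adjusted p of 0.404. DESeq2 called 1 row of the table and no member, and limma-voom called none. At an unadjusted p under 0.05 edgeR had 6 of 49 members (12.2%) against 752 of all rows (6.52%). Of these, 2 were higher in KO-labelled libraries (background 2.01%), namely Rpph1 and Snord52, and 4 were lower (background 4.51%), namely Snord2, Mir703, Mir684-1 and Snora75. The ranges of the groups did not overlap for 3 members, against 2.64% of all rows, and these were Snord52 and Snora41 (higher, background 1.22%) and Snord2 (lower, background 1.42%). A positive log2 fold change was seen in 25 of 49 members and in 49.3% of all rows. The median log2 fold change was 0.02 over the members and -0.00 over all rows.

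The members were measured less precisely than the table as a whole. The median width of the 95% confidence interval of the log2 fold change was 1.26 over the members and 0.61 over all rows. The interval lay within -1 and 1 for 29 of 49 members and for 90.5% of all rows. For the other 20 members the interval reached beyond these limits. Counts were low: 5 members had fewer than 10 counts in at least 1 library (Rpph1, Mir3971, Mir6935, Mir6403 and Mir221), and 27 members did not reach 1 CPM in 4 libraries. In CPM without the TMM factors, rows under 0.502 in the fourth highest library do not occur in the table, so a small RNA below that level is not analysed here.

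**Figure D1:**
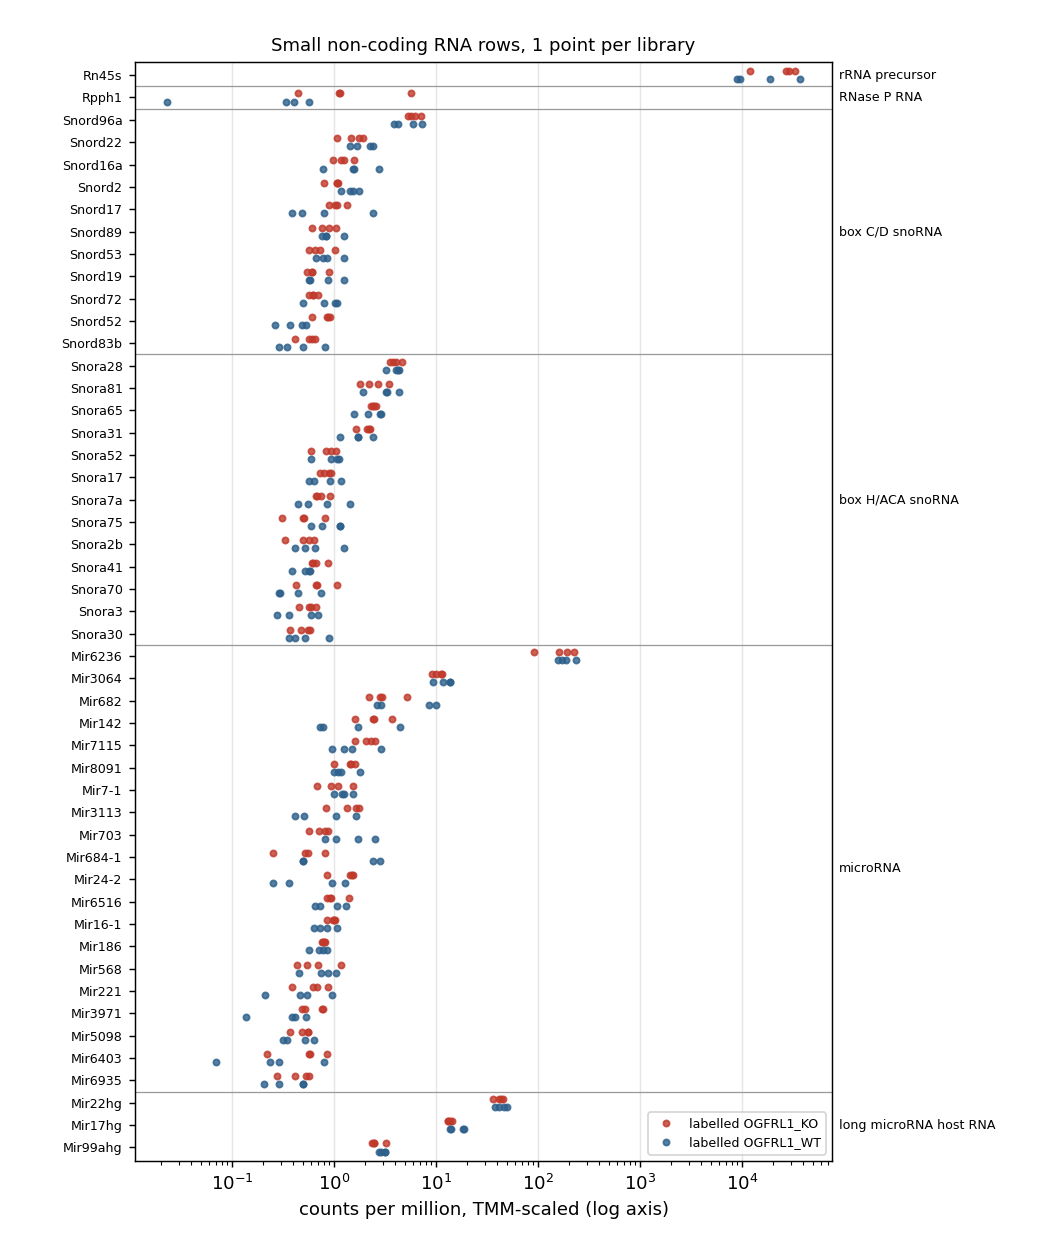
Level of each of the 49 members in each library. The horizontal log axis gives TMM-scaled CPM, each row is 1 gene ordered by mean level within its class, and each point is 1 library, red for OGFRL1_KO and blue for OGFRL1_WT labels. Rn45s lies at 9040 CPM or more, Mir6236 between 90.6 and 235 CPM, and most other rows near 1 CPM, and the colours are separated for Snord52, Snora41 and Snord2.

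**Figure D2:**
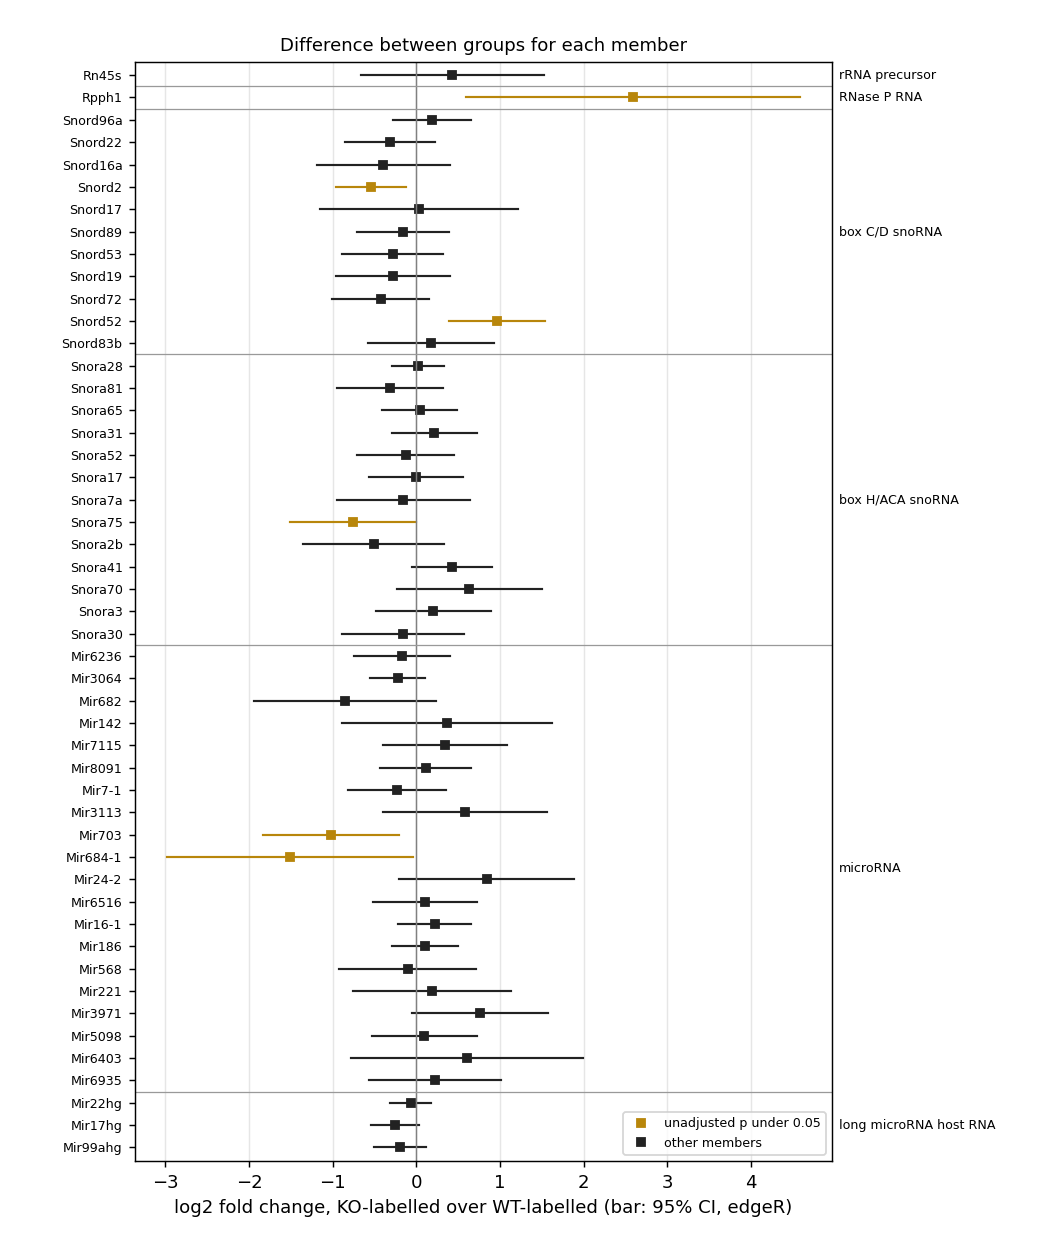
Log2 fold change of each member, KO-labelled over WT-labelled, as a square with its 95% confidence interval from edgeR (n = 4 per group). The 6 members at an unadjusted p under 0.05 are in gold, and no member passed after adjustment over all 11541 rows.

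Rn45s, the 45S ribosomal RNA precursor, held nearly all counts of the members. It lies on the plus strand at chr17:39842997-39848829 (mm10) with a listed length of 5833 bases. Rn45s had 28659, 12079, 33275 and 26823 CPM in KO-labelled replicates 1 to 4, and 9040, 9652, 18635 and 37371 CPM in WT-labelled replicates 1 to 4. The highest and the lowest library were both WT-labelled, and the groups overlapped. The means were 25209 ± 9164 and 18674 ± 13214 CPM (SD, n = 4). On the log2 scale KO-labelled over WT-labelled was 0.43 (SE 0.48; edgeR adjusted p = 0.553). Without WT-labelled replicates 1 and 2 the log2 fold change was -0.15, and without WT-labelled replicate 4 it was 1.02 (edgeR unadjusted p = 0.0245). All 49 members together took 2.57 ± 0.918% of counts in KO-labelled and 1.90 ± 1.34% in WT-labelled libraries (SD, n = 4), and without Rn45s the other 48 took 0.0294 and 0.0317%.

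Rn45s followed the ribosomal content of the library. Its share of all counts was 2.89, 1.23, 3.34 and 2.72% in KO-labelled replicates 1 to 4, beside ribosomal read percentages of 7.16, 2.71, 8.24 and 7.21. In WT-labelled replicates 1 to 4 the share was 0.874, 0.944, 1.89 and 3.75%, beside 1.79, 1.83, 4.21 and 9.10. Across the 8 libraries Pearson's r was 0.996 (exact permutation p = 7.44e-05) and Spearman's rho 0.976 (exact permutation p = 0.000397). Without the 2 libraries farthest from the median, WT-labelled replicates 1 and 2, r was 0.992 (exact permutation p = 0.00278) and rho 0.943 (exact permutation p = 0.0167). Both measures count ribosomal reads of the same library, by featureCounts in one case and by bowtie2 in the other. A close relation was therefore built in, and the p-values add no support to it. Whether both counted the same reads was not examined. The Rn45s count amounted to 27.0 to 31.8% of the ribosomal reads estimated from the authors' percentage in each library. Against the authors' tally of reads in exons classed as other, on the strand that most exon reads took, it came to 59.1 to 86.8%.

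**Figure D3:**
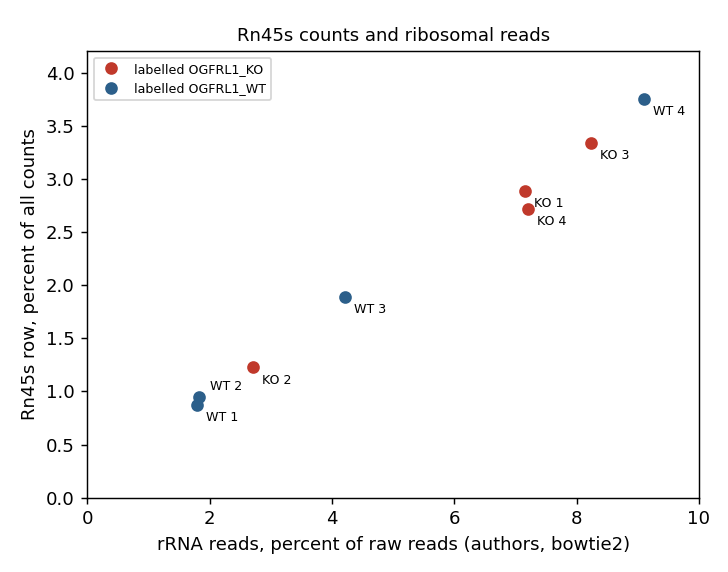
Share of all counts in the Rn45s row (vertical axis, percent) against the authors' percentage of raw reads that are ribosomal (horizontal axis), 1 point per library. The 8 points rise together from WT-labelled replicate 1 (1.79 and 0.874%) to WT-labelled replicate 4 (9.10 and 3.75%), and the KO-labelled libraries lie between them.

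Rpph1, the RNA of RNase P, had the largest fold change of the members and rested on few reads. It lies on the minus strand at chr14:50807447-50807771 (mm10). The counts were 55, 24, 278 and 57 in KO-labelled replicates 1 to 4, and 13, 1, 33 and 25 in WT-labelled replicates 1 to 4, which is 1.14, 0.442, 5.68 and 1.11 CPM against 0.340, 0.0230, 0.564 and 0.405 CPM. KO-labelled replicate 3 was far above the rest and WT-labelled replicate 2 far below, and the groups overlapped through KO-labelled replicate 2. The log2 fold change was 2.60 (SE 0.88, 95% CI 0.60 to 4.59; edgeR unadjusted p = 0.0165, adjusted p = 0.404). Without KO-labelled replicate 3 it was 1.38 (edgeR unadjusted p = 0.065), and with the ribosomal percentage as a covariate it was 1.79. Parp2, a DNA repair gene that shares its promoter region with Rpph1, was at 38.7 ± 1.36 CPM in KO-labelled and 42.7 ± 4.80 CPM in WT-labelled libraries (SD, n = 4; log2 fold change -0.14, SE 0.09). Of 11 protein subunits of RNase P and RNase MRP, 10 were tested, none passed the threshold and none was at an unadjusted p under 0.05. The subunit Rpp30 had a log2 fold change of -0.33 (SE 0.18) and Rpp38 of -0.28 (SE 0.17), and their median was -0.05 against -0.00 over all rows.

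Box C/D snoRNAs, the guides of ribose methylation, had a summed level of 15.3 ± 0.752 CPM in KO-labelled and 15.8 ± 2.12 CPM in WT-labelled libraries (SD, n = 4). Of the 11 rows 4 had a positive log2 fold change, and the median was -0.28. Snord52 had 0.872, 0.607, 0.920 and 0.860 CPM in KO-labelled replicates 1 to 4, and 0.261, 0.483, 0.530 and 0.372 CPM in WT-labelled replicates 1 to 4. Every KO-labelled library was above every WT-labelled one, and the counts behind these values were 33 to 45 and 10 to 31. Rows analysed here reached at least 0.502 CPM, without the TMM factors, in 4 libraries. All 4 KO-labelled values of Snord52 were above this level, while those of WT-labelled replicates 1, 2 and 4 were below it. Snord52 was therefore included through the group in which it was high, and what this did to its p was not tested. The log2 fold change of Snord52 was 0.96 (SE 0.25, 95% CI 0.39 to 1.54; edgeR unadjusted p = 0.00441, adjusted p = 0.404), and it stayed between 0.82 and 1.12 when each library was left out in turn. Snord52 lies in an intron of 1110038B12Rik, a row at 12.9, 11.4, 13.03 and 15.03 CPM in KO-labelled and 10.8, 10.01, 10.7 and 16.5 CPM in WT-labelled replicates 1 to 4, whose log2 fold change was 0.12 (SE 0.17). The difference between the fold changes of the snoRNA and its host was not tested.

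Snord2 was the only member whose groups did not overlap with KO-labelled values lower. It had 1.08, 1.10, 1.06 and 0.802 CPM in KO-labelled replicates 1 to 4, and 1.75, 1.45, 1.16 and 1.54 CPM in WT-labelled replicates 1 to 4. Every KO-labelled library was below every WT-labelled one, with WT-labelled replicate 3 closest to them. The log2 fold change was -0.54 (SE 0.19, 95% CI -0.96 to -0.12; edgeR unadjusted p = 0.018, adjusted p = 0.404), and without WT-labelled replicates 1 and 2 it was -0.42. Snord2 and the box H/ACA snoRNA Snora81 both lie in introns of Eif4a2, a translation initiation factor, which was at 214, 228, 209 and 215 CPM in KO-labelled and 277, 265, 225 and 216 CPM in WT-labelled replicates 1 to 4 (log2 fold change -0.18, SE 0.09).

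Snord96a was the most abundant box C/D row, with 6.29, 5.72, 5.38 and 7.19 CPM in KO-labelled replicates 1 to 4 and 3.92, 4.26, 6.01 and 7.27 CPM in WT-labelled replicates 1 to 4. Its groups overlapped (log2 fold change 0.19, SE 0.21), and its lowest values were in WT-labelled replicates 1 and 2. Its host Gnb2l1, which encodes a ribosome-bound scaffold protein also called Rack1, was at 477, 394, 504 and 548 CPM in KO-labelled and 313, 320, 434 and 550 CPM in WT-labelled replicates 1 to 4. The order of the libraries was the same in member and host among WT-labelled but not among KO-labelled ones. Snord22, in the non-coding host Snhg1, had 1.74, 1.91, 1.06 and 1.47 CPM against 2.40, 2.23, 1.69 and 1.44 CPM, a log2 fold change of -0.32 (SE 0.24). Snord16a, in the ribosomal protein gene Rpl4, had 1.16, 1.58, 0.982 and 1.25 CPM against 2.74, 1.56, 1.54 and 0.777 CPM, a log2 fold change of -0.39 (SE 0.35). In both, WT-labelled replicate 1 was the highest library and the groups overlapped. Snhg1 was at 15.7, 16.5, 16.7 and 16.6 CPM against 22.6, 19.5, 16.2 and 20.3 CPM (log2 fold change -0.26, SE 0.11). Rpl4 was at 849.5, 900.0, 839 and 827 CPM against 1083, 998, 865 and 849 CPM (log2 fold change -0.15, SE 0.09). WT-labelled replicate 1 was the highest library of both hosts too. The other 6 box C/D rows (Snord17, Snord19, Snord53, Snord72, Snord83b and Snord89) had mean levels of 0.523 to 1.05 CPM and log2 fold changes of -0.42 to 0.18. The widest interval among these was that of Snord17 (-1.15 to 1.22), whose WT-labelled libraries ran from 0.392 to 2.41 CPM.

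Box H/ACA snoRNAs, the guides of pseudouridylation, summed to 17.0 ± 0.352 CPM in KO-labelled and 17.5 ± 2.22 CPM in WT-labelled libraries (SD, n = 4). Positive log2 fold changes were found in 6 of the 13, with a median of -0.01. Snora28, in the translation initiation factor gene Eif5, was the most abundant, with 4.09, 3.51, 3.80 and 4.65 CPM in KO-labelled replicates 1 to 4 and 4.31, 3.27, 4.05 and 4.22 CPM in WT-labelled replicates 1 to 4. Its groups overlapped, with the highest value in KO-labelled replicate 4 and the lowest in WT-labelled replicate 2, and its interval was narrow for a member (log2 fold change 0.02, 95% CI -0.30 to 0.33). Snora81 had 2.72, 3.46, 2.21 and 1.82 CPM against 4.34, 3.29, 3.23 and 1.91 CPM (log2 fold change -0.31, SE 0.28), and its lowest library in each group was replicate 4. For Snora81 this was -0.13 without WT-labelled replicate 1 and -0.01 without WT-labelled replicates 1 and 2. Snora65, in the ribosomal protein gene Rpl12, had 2.43, 2.47, 2.60 and 2.33 CPM against 2.14, 1.59, 2.90 and 2.85 CPM (log2 fold change 0.04, SE 0.20), with the KO-labelled libraries inside the WT-labelled range. Eif5 was at 385, 401, 360.1 and 382 CPM against 499.7, 485, 383 and 389 CPM (log2 fold change -0.20, SE 0.10). Rpl12 was at 463, 438, 401 and 462 CPM against 413, 340, 442 and 545 CPM (log2 fold change 0.02, SE 0.13). WT-labelled replicates 1 and 2 were the highest for Eif5, and WT-labelled replicate 2 was the lowest for Rpl12.

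Snora75, in an intron of nucleolin (Ncl), had 0.498, 0.810, 0.511 and 0.313 CPM in KO-labelled replicates 1 to 4 and 1.15, 1.15, 0.598 and 0.761 CPM in WT-labelled replicates 1 to 4. WT-labelled replicates 1 and 2 were the highest, and KO-labelled replicate 2 lay above WT-labelled replicates 3 and 4. The log2 fold change was -0.75 (SE 0.33; edgeR unadjusted p = 0.0492, adjusted p = 0.404), and -0.34 without WT-labelled replicates 1 and 2. Ncl, a nucleolar protein of ribosome assembly, had 987, 1173, 850.1 and 877 CPM against 1667, 1574, 1071 and 963 CPM, a log2 fold change of -0.44 (SE 0.19; edgeR adjusted p = 0.404). In Snora75 and in its host the same WT-labelled libraries, 1 and 2, were highest.

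Snora41 had 0.623, 0.865, 0.613 and 0.665 CPM in KO-labelled replicates 1 to 4 and 0.522, 0.575, 0.581 and 0.388 CPM in WT-labelled replicates 1 to 4. Its groups did not overlap, KO-labelled being higher, on 20 to 47 counts per library, and the log2 fold change was 0.43 (SE 0.21; edgeR unadjusted p = 0.076, adjusted p = 0.404). Its host, the elongation factor gene Eef1b2, also had groups that did not overlap, in the opposite direction: 190.2, 199, 174 and 195 CPM in KO-labelled and 231, 206, 200.03 and 221 CPM in WT-labelled replicates 1 to 4 (log2 fold change -0.18, SE 0.07; edgeR unadjusted p = 0.039, adjusted p = 0.404). The difference between the fold changes of Snora41 and Eef1b2 was not tested. The other 8 box H/ACA rows (Snora2b, Snora3, Snora7a, Snora17, Snora30, Snora31, Snora52 and Snora70) had mean levels of 0.521 to 1.90 CPM and log2 fold changes of -0.51 to 0.63.

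MicroRNA rows were led by Mir6236, which had 226, 162, 191 and 90.6 CPM in KO-labelled replicates 1 to 4 and 173, 158, 235 and 187 CPM in WT-labelled replicates 1 to 4. Its counts, 4633 to 13780 per library, were most of those of the 20 rows, which summed to 198 ± 57.4 CPM in KO-labelled and 223 ± 30.1 CPM in WT-labelled libraries (SD, n = 4). KO-labelled replicate 4 was the lowest library and the groups overlapped, with a log2 fold change of -0.17 (SE 0.25). Mir6236 (chr9:110281287-110281409, plus strand, mm10) had no host row, and its level did not follow the ribosomal percentage across the 8 libraries (r = 0.00, exact permutation p = 0.994; rho = 0.24, exact permutation p = 0.582; without WT-labelled replicates 1 and 2, r = -0.08 and rho = -0.14). Mir3064 followed at 9.99, 11.5, 11.1 and 9.11 CPM against 13.8, 13.8, 11.7 and 9.31 CPM, a log2 fold change of -0.22 (SE 0.14). Its host, the RNA helicase gene Ddx5, whose product works in microRNA processing, was at 911, 1004, 852 and 863 CPM against 1276, 1236, 976 and 947 CPM (log2 fold change -0.29, SE 0.12), and WT-labelled replicates 1 and 2 were highest in both rows. By the exons the authors list, a single base of Mir3064 lies in an exon of Ddx5, while GENCODE lists a Ddx5 transcript of the nonsense-mediated decay type with an exon over the whole hairpin.

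Mir682, the hairpin that is almost identical to Rpl37a mRNA, had 2.22, 5.23, 2.82 and 2.97 CPM in KO-labelled replicates 1 to 4 and 10.1, 8.51, 2.90 and 2.64 CPM in WT-labelled replicates 1 to 4. WT-labelled replicates 1 and 2 and KO-labelled replicate 2 were above all the others. The log2 fold change was -0.85 (SE 0.48; edgeR adjusted p = 0.404), and 0.26 without WT-labelled replicates 1 and 2. Rpl37a ran the other way in the same libraries: 125.7, 99.1, 125.1 and 159.7 CPM in KO-labelled and 88.5, 80.7, 107.5 and 171.6 CPM in WT-labelled replicates 1 to 4, with its lowest values in the 3 libraries where Mir682 was highest.

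Mir684-1 and Mir703 were also highest in WT-labelled replicates 1 and 2. Mir684-1, listed at 8 places with a summed length of 766 bases, had 0.519, 0.810, 0.552 and 0.254 CPM in KO-labelled replicates 1 to 4 and 2.43, 2.83, 0.495 and 0.502 CPM in WT-labelled replicates 1 to 4. The log2 fold change was -1.51 (SE 0.65; edgeR unadjusted p = 0.0449, adjusted p = 0.404), and 0.10 without these libraries. GENCODE has Mir684-1 wholly in an exon of protein-coding and nonsense-mediated decay transcripts of Sumo2, a gene with its own row. Whether its reads came from Sumo2 mRNA was not tested. Mir703 had 0.872, 0.718, 0.818 and 0.567 CPM against 2.53, 1.73, 0.820 and 1.04 CPM, a log2 fold change of -1.02 (SE 0.36; edgeR unadjusted p = 0.0198, adjusted p = 0.404), and -0.32 without these libraries. Its lowest WT-labelled value, in replicate 3, lay between KO-labelled values, so the groups overlapped. Eef1a1, which Mir703 resembles, had 5835 to 6163 CPM in KO-labelled and 5235 to 6191 CPM in WT-labelled libraries (log2 fold change 0.08, SE 0.07), with its lowest values in WT-labelled replicates 1 and 2.

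On the other side were Mir24-2 and Mir3971, neither at an unadjusted p under 0.05. Mir24-2, one of the genes of the mature microRNA miR-24, had 1.52, 0.847, 1.43 and 1.52 CPM in KO-labelled replicates 1 to 4 and 0.366, 0.253, 0.957 and 1.29 CPM in WT-labelled replicates 1 to 4 (log2 fold change 0.84, SE 0.46). WT-labelled replicates 1 and 2 were lowest, and without them the log2 fold change was 0.23. Mir3971, in an intron of the amino acid transporter gene Slc43a2, had 0.789, 0.515, 0.757 and 0.489 CPM against 0.418, 0.138, 0.530 and 0.388 CPM (log2 fold change 0.76, SE 0.36). Its groups overlapped, and the host was at 488, 403, 515 and 512 CPM against 319, 335, 444 and 512 CPM (log2 fold change 0.25, SE 0.16). The other 13 microRNA rows (Mir5098, Mir6403, Mir6516, Mir6935, Mir7-1, Mir7115, Mir8091, Mir142, Mir16-1, Mir186, Mir221, Mir3113 and Mir568) had mean levels of 0.410 to 2.23 CPM and log2 fold changes of -0.23 to 0.61. Among them is Mir142, the gene of a microRNA found mainly in blood cells, at 2.39, 1.62, 2.47 and 3.68 CPM against 0.731, 0.782, 1.73 and 4.47 CPM.

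The 3 long microRNA host RNAs were measured precisely. Mir22hg had 43.7, 36.1, 42.0 and 45.7 CPM in KO-labelled replicates 1 to 4 and 50.0, 41.6, 37.7 and 46.2 CPM in WT-labelled replicates 1 to 4 (log2 fold change -0.07, 95% CI -0.32 to 0.18). Mir17hg, the host of a microRNA cluster known for promoting cell growth, had 13.6, 14.5, 13.05 and 13.1 CPM against 18.97, 18.3, 13.99 and 13.6 CPM (log2 fold change -0.26, SE 0.13; edgeR unadjusted p = 0.0754). Mir99ahg had 2.45, 3.20, 2.37 and 2.48 CPM against 2.79, 3.15, 2.92 and 3.17 CPM (log2 fold change -0.20, SE 0.14). All 3 groups of values overlapped, and WT-labelled replicates 1 and 2 were the highest for Mir17hg.

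Most of the small RNA rows lie within another row. Of the 46 members that are not long host RNAs, 32 have 1 place that lies inside 1 row of the table on the same strand, in 31 host rows in all, since Eif4a2 holds 2. Another 3 (Mir684-1, Mir5098 and Snord53) are listed at several places, and the remaining 11 have 1 place and no host row. All 13 box H/ACA and 9 of 11 box C/D rows have a host row, against 10 of 20 microRNA rows. Only Mir3064 has any base in an exon of its host as the table lists exons, so by that annotation the others are intronic, and the introns named above are meant in that sense. GENCODE places 19 of the 31 hosted members it could be compared for wholly in an exon of some transcript, 16 of them in a transcript classed as a retained intron. The other 3 are Mir3064, Mir6516 in the non-coding Snhg20 and Snora7a in a protein-coding transcript of Rpl32. Mir568 has no host row, while GENCODE places it wholly in an exon of Zbtb20, a zinc finger gene.

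Per length, members were usually far below their hosts. On the authors' log2 FPKM scale 28 of 32 members were below the host in every library, and 2 were above it in every library. The largest gap was that of Mir6935 in the cytoplasmic actin gene Actg1, with a median difference of -7.33 (range -8.08 to -6.99). Among the named snoRNAs the median difference was -0.87 for Snord52, -2.01 for Snord2, -2.21 for Snord96a, -4.15 for Snora41 and -4.37 for Snora75. Mir16-1, in the non-coding host Dleu2, was above its host by a median of 1.47 (range 0.41 to 1.61). Snora17 was above its non-coding host Snhg7 by a median of 0.23 (range 0.02 to 0.88). Mir6516 in Snhg20 and Snora2b in Kansl2 lay on both sides of 0 among the libraries. Across the 32 pairs the level of the member and that of the host were only weakly ordered (Spearman's rho 0.16 across genes, which are not independent replicates). None of the 31 host rows was called by edgeR, and 6 were at an unadjusted p under 0.05 (background 6.52%). Of these, 5 were lower in KO-labelled libraries (Ddx5, Eef1b2, Ncl, Snhg1 and Tpt1; background 4.51%) and 1 was higher (Actg1; background 2.01%).

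**Figure D4:**
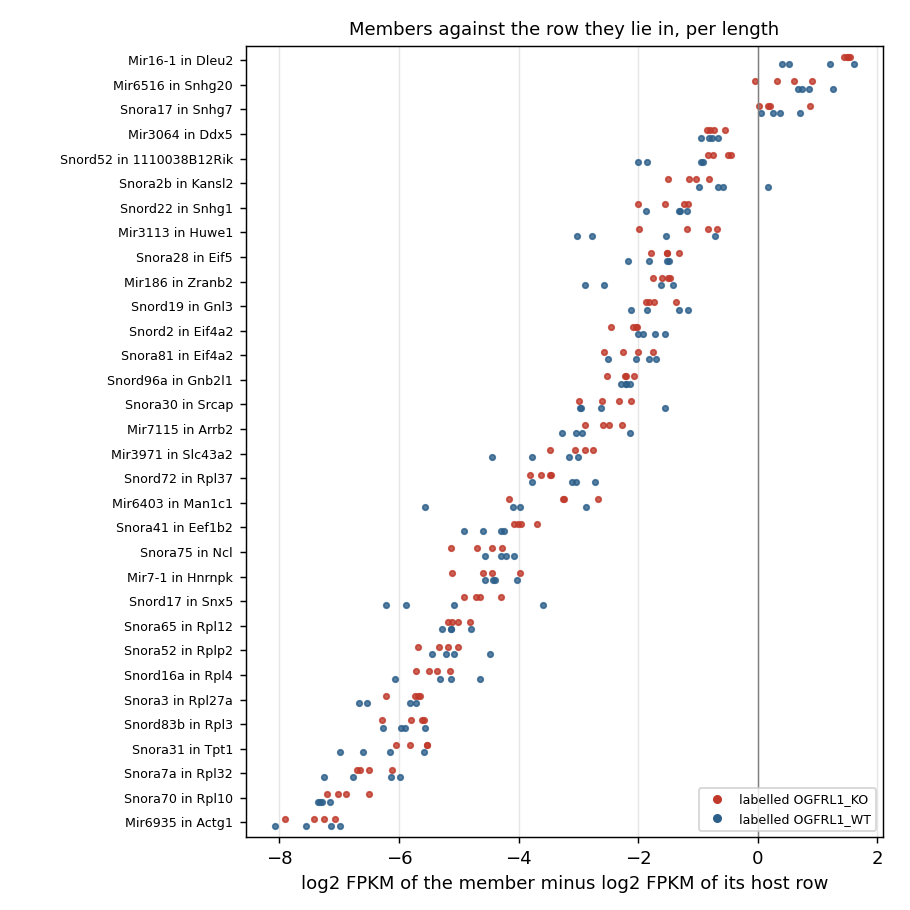
Log2 FPKM of the member minus log2 FPKM of the row it lies in, for 32 members ordered by the median, 1 point per library, red for OGFRL1_KO and blue for OGFRL1_WT labels. Points left of 0 are below the host per length: this is so in every library for 28 members, while Mir16-1 and Snora17 lie right of 0 in every library.

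The rows are short. The median length was 110 bases over the 49 members, 77 over box C/D, 120.0 over box H/ACA and 95.5 over microRNA rows. Over the 44 short members other than Rn45s and Mir6236 the mean CPM did not order with length (rho 0.02 across genes), while the median log2 FPKM was lower in longer rows (rho -0.54 across genes), as follows from dividing such counts by length. The shortest row was Snord19 with 54 bases and the longest of these 44 was Mir684-1 with 766 bases, whose median log2 FPKM of -0.41 was the lowest.

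The ribosomal percentage of a library went with the level of some members, as with the level of many genes. Log2 CPM of each row was set against the authors' ribosomal percentage across the 8 libraries with exact permutation tests, adjusted over all 11541 rows, and a row was counted where both r and rho had an adjusted p under 0.05. That held for 17 of 49 members against 55.2% of all rows. A positive relation was found for 11 members (background 28.3%) and a negative one for 6 (background 26.9%). By class the 17 were Rn45s, 3 of 11 box C/D, 3 of 13 box H/ACA, 9 of 20 microRNA and 1 of 3 long host rows. The share among members, 34.7%, was below that of the table. Members were also measured less precisely, and rows with similar counts were not set beside them. Whether small RNA rows differ from other rows in this relation was therefore not tested.

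Besides Rn45s, the positive relations were those of Mir3113, Mir7115, Mir142, Snord17, Snora70, Mir221, Mir6935, Snora7a, Mir6516 and Mir186, with r from 0.74 to 0.94. Mir142 had r = 0.92 and rho = 0.98 (exact permutation, adjusted p = 0.00348 and 0.00452), and without WT-labelled replicates 1 and 2 r was 0.85 and rho 0.94. The negative relations were those of Snora81, Snord16a, Mir3064, Mir682, Snord22 and Mir17hg, with r from -0.90 to -0.83. Snord16a had r = -0.89 and rho = -0.95 (exact permutation, adjusted p = 0.00372 and 0.00827), and without WT-labelled replicates 1 and 2 r was -0.93 and rho -0.94. The weakest of the 17 without those libraries was Mir6516, with r = 0.51 and rho = 0.49. Of the 17, only Rn45s, Mir142 and Snord16a had an unadjusted exact permutation p under 0.05 for both r and rho over the remaining 6 libraries. Snord89, Snora30 and Mir8091, which are not among the 17, were also under that level for both over these 6 libraries, with positive r and rho. The other rows of the 17 did not keep that level for both measures. WT-labelled replicates 1 and 2 also had the highest mitochondrial percentages, and that measure and the ribosomal percentage cannot be told apart over these libraries.

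Members did not always follow the direction of their host. Of the 32 pairs, the member passed in 12 and the host in 20, and both passed in 8. In 6 of these 8 the sign was the same, as for Snord16a and Rpl4 (r = -0.82 for the host), Snora81 and Eif4a2 (-0.85), Mir3064 and Ddx5 (-0.85), Snora70 and Rpl10 (0.93), Mir7115 and Arrb2 (0.78), and Mir6516 and Snhg20 (0.92). In the other 2 it was opposite: Mir3113 had r = 0.94 and its host Huwe1, a ubiquitin ligase, r = -0.94, and Mir186 had r = 0.74 and its host Zranb2, a splicing protein, r = -0.82. Mir3113 had 1.33, 0.828, 1.66 and 1.76 CPM in KO-labelled replicates 1 to 4 and 0.418, 0.506, 1.04 and 1.65 CPM in WT-labelled replicates 1 to 4. Huwe1 was at 600.0, 663, 580 and 556 CPM and at 719, 714, 604 and 536 CPM in the same libraries, so WT-labelled replicates 1 and 2 were lowest for the microRNA row and highest for its host. The authors' percentage of intron reads on the strand that few exon reads took was 1.37, 0.79, 1.49 and 1.44 in KO-labelled and 0.78, 0.79, 0.94 and 1.70 in WT-labelled replicates 1 to 4. On the strand that most exon reads took it was 10.52, 9.94, 10.39 and 10.13 in KO-labelled and 11.12, 10.52, 10.11 and 11.09 in WT-labelled replicates 1 to 4. The part of either measure in these relations was not tested.

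**Figure D5:**
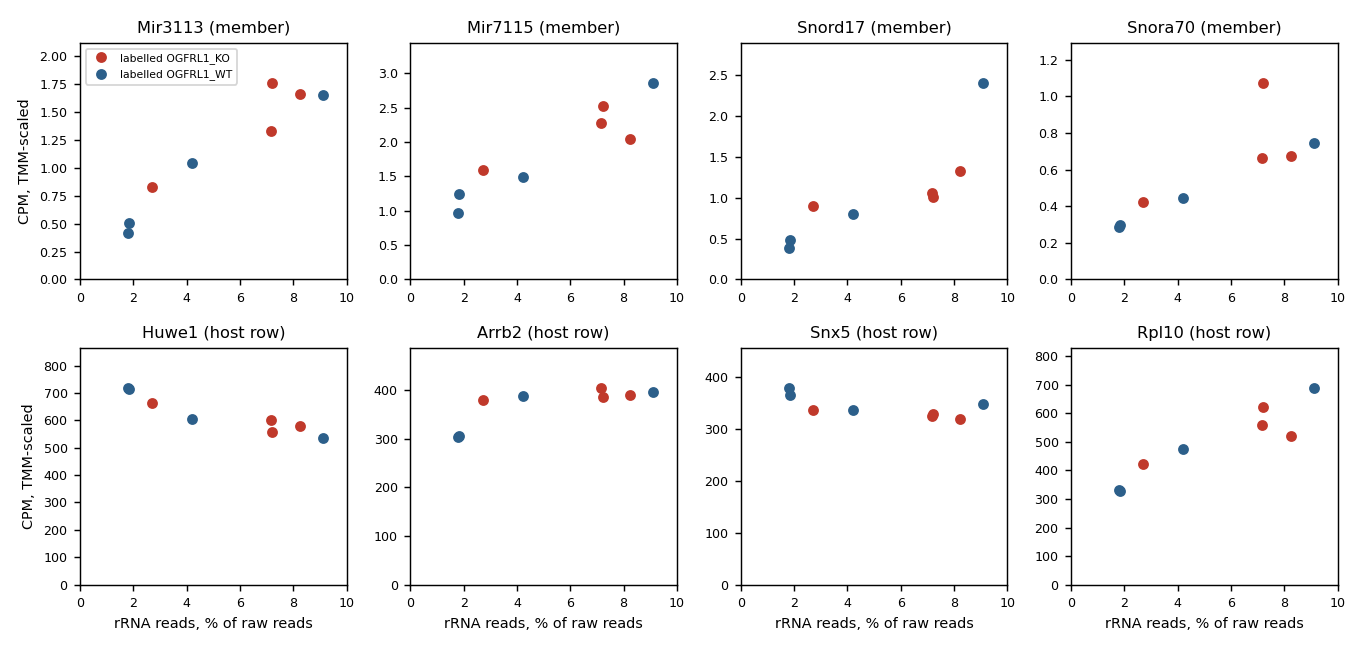
TMM-scaled CPM (vertical axes, each from 0) against the authors' ribosomal percentage of raw reads (horizontal axes), 1 point per library, for the 4 members with the highest r among those inside a host row that passed for both r and rho (upper panels) and for their hosts (lower panels). Mir3113 is low and Huwe1 high in the libraries with under 2% ribosomal reads, whereas Snora70 and Rpl10 are both low there.

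The protein machinery of these RNAs was examined as lists, each with 0 genes called by edgeR. Of 19 tested proteins of the box C/D and H/ACA particles none was higher and 3 were lower at an unadjusted p under 0.05, with a median log2 fold change of -0.08. These included Nufip1 (log2 fold change -0.29, SE 0.11) and Znhit6 (-0.26, SE 0.11), both assembly factors of box C/D particles. Without WT-labelled replicates 1 and 2 they were at -0.09 (edgeR unadjusted p = 0.298) and -0.10 (edgeR unadjusted p = 0.307). Of 16 tested genes of microRNA processing and the Argonaute proteins 1 was lower, the helicase gene Ddx5 named above (-0.08 without the same libraries), and the median was -0.04. Of 28 tested factors of ribosomal RNA processing none was at that level, and the median was -0.08. Of 18 genes of RNA polymerase I transcription 1 was lower, Ncl (-0.07 without the same libraries), and the median was 0.03, and of 27 genes of RNA polymerase III, which transcribes Rpph1, 1 was higher (Snapc2, 0.58, SE 0.22, and 0.26 without the same libraries) and 2 were lower, with a median of 0.06.

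Among the 11 lists of this machinery and of host genes, non-coding snoRNA hosts had the largest share of lower values: 4 of 12 tested were lower at an unadjusted p under 0.05 and none was higher, with a median of -0.13. These included Snhg5 (log2 fold change -0.34, SE 0.11) and Gas5 (-0.38, SE 0.15). Without WT-labelled replicates 1 and 2 the log2 fold change was -0.21 for Snhg5 (edgeR unadjusted p = 0.114) and -0.08 for Gas5 (edgeR unadjusted p = 0.403). Protein-coding snoRNA hosts had 3 of 46 lower and none higher, with a median of -0.02, among them Tpt1 (-0.36, SE 0.12, and -0.14 without the same libraries), a growth-related gene whose intron holds Snora31. Lists for Cajal bodies (13 tested), the signal recognition particle (10) and the 7SK particle (14) had 0, 1 and 3 lower and none higher, with medians of 0.01, -0.09 and -0.15. Against these counts stand 4.51% of all rows lower and 2.01% higher at the same level.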

How the data were processed

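RNA from 8 macrophage cultures was sequenced, 4 per genotype label. Reads were aligned with STAR to mm10, per the submitters' processing notes, and counted per gene with featureCounts, per the file headers. The authors deposited raw counts, used for every test, and log2 FPKM values, used for levels per length, with an offset that is not stated. The authors also deposited mapping statistics in reads and percent, with read classes from bamutils and the ribosomal percentage from bowtie2, per the file headers.

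From the counts, TMM-scaled CPM and an edgeR (4.0.16, R 4.3.3) quasi-likelihood test of KO-labelled against WT-labelled libraries were computed over all 11541 rows, with Benjamini-Hochberg adjustment and a threshold of 0.05. The default edgeR filter removed 0 rows. DESeq2 (1.42.0), limma-voom (limma 3.58.1), other scalings, a stricter filter, a ribosomal covariate and left-out libraries were alternatives. On simulated counts for this comparison over 11541 genes, the test recovered 98% of 4-fold and 79% of 2-fold changes with 8 false calls. The simulated rows varied independently, without differences shared by a whole library, and the changed rows were drawn from all rows. The recovered shares therefore do not carry over to these libraries or to members with low counts. Libraries held 39601341 to 61556269 counts. Any pair of libraries differed beyond counting error, with a chi-square per degree of freedom of at least 7.25. Correlations used exact permutation tests (scipy 1.17.1), and similarity searches used blastn (2.17.0).

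The members, gene lists and tests were chosen with earlier results of these data known. Values in every library are given for the 3 most abundant members of each class and the 5 with the smallest p in each direction. They are also given for the hosts of these members. Fold changes are given for some genes with a small p in some of the pathway lists. No gene is named for the list of ribosomal RNA processing or for the 3 lists described last, from Cajal bodies onwards. For RNA polymerase III the higher gene is named and the lower ones are not. Chosen after values were seen were the ribosomal correlations over all rows, the similarity search, the comparison of Mir682 with Rpl37a and Mir703 with Eef1a1, the hosts plotted against the ribosomal percentage (highest r among hosted members that passed for r and rho), and Snora41, Mir142, Mir3113, Huwe1, Parp2 and the host 1110038B12Rik as named rows. The largest gap in the ribosomal percentage was 40.4% of its range, and the libraries were not split into clusters.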

Additional observations from a re-analysis of the deposited data

Results flagged for a closer look

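In 44 groups of 4 libraries (KO-labelled and WT-labelled, for each named member), 4 held a library far from the other 3 by Dixon's criterion, and chance alone gives about 1 in 20 groups. Rpph1 in KO-labelled replicate 3, at 5.68 CPM, was far above the other KO-labelled libraries. Mir99ahg in KO-labelled replicate 2, at 3.20 CPM, was also far above them. Mir24-2 in KO-labelled replicate 2, at 0.847 CPM, and Snord2 in KO-labelled replicate 4, at 0.802 CPM, were far below the others of their group. KO-labelled replicate 2 also had the lowest ribosomal percentage of the KO-labelled libraries (2.71) and the highest mitochondrial percentage of them (3.17). The part of these measures in the values was not tested.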

How the results depend on the processing

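No member was called in any setting, and DESeq2 called 1 row of the table. Rows at an unadjusted p under 0.05 numbered 1178 with DESeq2, 115 without WT-labelled replicates 1 and 2, and 134 to 5207 when each library was left out. The count was 134 without KO-labelled replicate 3, 5207 without WT-labelled replicate 4, 1671 without WT-labelled replicate 3 and 1631 without KO-labelled replicate 2. Members at that level numbered 1 with a filter of at least 1 CPM in 4 libraries, 2 without WT-labelled replicates 1 and 2, and 2 to 18 when each library was left out, with 18 without WT-labelled replicate 4. The members' share of counts was 0.0294% in KO-labelled and 0.0317% in WT-labelled libraries without Rn45s, and 2.31 to 3.01% and 1.27 to 2.23% when each library was left out. Without WT-labelled replicates 1 and 2 the log2 fold change reversed to 0.26 for Mir682, 0.10 for Mir684-1, -0.15 for Rn45s, -0.0433 for Snora28, -0.23 for Snora65, 0.11 for Snord16a, -0.11 for Snord96a, -0.0584 for 1110038B12Rik, -0.0339 for Gnb2l1, -0.16 for Rpl12, 0.025 for Rpp30, 0.00524 for Rpp38 and 0.0364 for Zcchc11. With the ribosomal percentage as a covariate it reversed to -0.0397 for Snora28, -0.0484 for Snora65, 0.024 for Snord16a, -0.0152 for 1110038B12Rik and -0.0596 for Rpl12. When each library was left out, it ranged from -0.13 to 0.00124 for Mir22hg, from -0.35 to 0.0352 for Mir6236, from -0.0625 to 0.0776 for Snora28, from -0.11 to 0.16 for Snora65 and from -0.0822 to 0.15 for Rpl12. The cause was not tested. Of 52 named rows, 37 reversed in no setting, and DESeq2, RLE or upper-quartile scaling, limma-voom, no filter and totals without the members reversed none. The filter of 1 CPM left 7 of the 52 without a value. No paired analysis was possible because replicate numbers were given in accession order and the labels share none between groups. Low counts limit most members, and the small rows cannot be told apart from reads of precursors or unspliced hosts.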
